A study of Mus musculus with 20 samples.

Results

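The cytosolic ribosomal protein genes encode the proteins of the large and small ribosomal subunits. They were chosen by name as the protein-coding genes of the mm10 mouse build whose symbols begin with Rpl or Rps and a digit, together with Rplp0, Rplp1, Rplp2 and Rpsa. The S6 kinases (Rps6k), Rps19bp1, Rpl7l1, Rpl22l1, Rpl39l, Rpl3l, Rpl10l and pseudogenes were left out. This gave 83 genes of 21887, 49 of the large subunit and 34 of the small subunit, and 6 of them are paralogs or retrogenes by name (Rps23rg1, Rpl37rt, Rps27rt, Rpl32l, Rpl36al and Rps27l). No measured value entered the choice. The data are peak lists from CUT&RUN, which releases and sequences the DNA under an antibody in permeabilised cells. One antibody was against p65, the RELA subunit through which NF-κB turns on inflammatory genes, and another against SOCS1, which restrains cytokine receptors through feedback. Bone-marrow-derived macrophages grown in M-CSF came from wild-type mice (WT) or from a knockout (KO) that the design text names as NOS1, whereas the study's title concerns SOCS1. They were untreated (control) or had received 100 ng/mL lipopolysaccharide (LPS, a bacterial product sensed through TLR4) for 30 min or 8 h. No age, sex or pooling of the mice is given in the sources used here, and the lists do not settle which gene the KO lacks.

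Each cytosolic ribosome is built from a single copy of nearly every one of these proteins, so their genes are expressed strongly in almost all cells and their output is kept in balance. Their mRNAs characteristically begin with a C followed by a run of pyrimidines, the 5′ terminal oligopyrimidine tract, through which mTOR signalling controls translation. Some of the proteins also have roles outside the ribosome. Rps3 can bind p65 and take part in NF-κB DNA binding, Rpl13a silences inflammatory mRNAs after interferon-γ, and Rpl5, Rpl11, Rpl23 and Rpl26 act on the p53 regulator MDM2 or on p53 mRNA.

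Each of the 12 groups (antibody, genotype and treatment) is 1 library, so differences between groups have no test and all intervals are exact (Clopper-Pearson) 95% intervals that cover counting error only. Depth ran from 6.93 to 18.4 M tags (10 M are 10000000) and the lists from 9438 to 43124 peaks. The p65 libraries of LPS-treated cells were the deeper ones in both genotypes, and the part of depth in the counts below was not tested. The p65 and SOCS1 lists of the same cells were called against the same IgG library. IgG tags were at their floor under 91.4% of the p65 and 88% of the SOCS1 peaks of KO control cells, against 14.7 to 43% elsewhere. A gene counts as called where the centre of a peak lies within 1 kb of either end of the gene. A score is the authors' peak score, which is not scaled to depth and can lie well below the number of tags in a strong peak. It is read only against other peaks of the same list, by rank or percentile. A gene without a peak is not shown to be unbound. In the p65 list of WT cells at 30 min, 7 of 12 macrophage marker genes and 0 of 4 hepatocyte and neuron markers had a peak within 1 kb, and 12 and 2 within 10 kb. Of 4 T cell, 4 B cell and 4 neutrophil markers, 1, 1 and 0 had one within 1 kb, and 2, 3 and 0 within 10 kb. All protein-coding genes stood at 36.8% and 58.9%.

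Promoter sequences were on hand for 63 of the 83 genes (RefSeq, build GRCm38.p6, 250 bases before to 50 after the listed start). The matches to the kB consensus, the DNA motif of NF-κB, are shown because p65 is one of the antibodies' targets. Capitals mark the match, with 10 bases on either side, for Rpl23 at chr11:97782406-97782435 (minus strand), Rpl6 at chr5:121204395-121204424, Rps19 at chr7:24884607-24884636 and Rps23 at chr13:90923111-90923140 (all plus strand).
Rpl23: ctgagtgggcGGGGCCTCCCgttcatatcc
Rpl6: ggggcctgggGGGACGTTCCctaggtgcat
Rps19: ttgtgcgcccGGGAAACCCCgtcgttccct
Rps23: tcggctgggcGGGGCTTCCCgcaatgcctt

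These 4 genes were 6.35% of the 63, against 8.86% of all 17492 promoters of the same length. Counted from the start site, the match covers bases 15 to 24 of Rpl23, 26 to 35 of Rps19 and −96 to −87 of Rpl6, and it begins 1 base before the start of Rps23. The core of the ETS family, CGGAAG on either strand, is, of the 10 motifs searched, the one that most promoters of the group hold. It was found in 42 of 63 (66.7%), against 21.5% of all promoters. The next set shows the 250 bases before the start of Rps25 (chr9:44407464-44407713, plus strand) and Rpl10 (chrX:74270566-74270815, plus strand), which have an ETS core and rank just below Rps19 in p65 score at 30 min, and of Rps18 (chr17:33955666-33955915, minus strand), which has the most ETS cores, 4. Capitals mark the core, read as CTTCCG where it lies on the other strand.
Rps25: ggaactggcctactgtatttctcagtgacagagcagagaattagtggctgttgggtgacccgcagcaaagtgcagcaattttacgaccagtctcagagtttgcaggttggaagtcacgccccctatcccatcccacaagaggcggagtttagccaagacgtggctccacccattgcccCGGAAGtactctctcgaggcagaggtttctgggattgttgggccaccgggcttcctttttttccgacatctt
Rpl10: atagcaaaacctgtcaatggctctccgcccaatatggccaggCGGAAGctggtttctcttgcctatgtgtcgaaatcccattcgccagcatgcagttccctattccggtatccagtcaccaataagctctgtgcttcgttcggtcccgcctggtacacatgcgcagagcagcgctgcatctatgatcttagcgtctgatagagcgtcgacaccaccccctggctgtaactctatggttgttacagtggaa
Rps18: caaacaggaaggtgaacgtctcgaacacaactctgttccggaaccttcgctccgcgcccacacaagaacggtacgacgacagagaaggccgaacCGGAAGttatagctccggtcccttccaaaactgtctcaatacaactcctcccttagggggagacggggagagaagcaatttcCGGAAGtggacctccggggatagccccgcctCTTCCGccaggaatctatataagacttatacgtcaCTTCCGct

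The gene with the highest p65 score at 30 min, Rps19, has no ETS core in this window. The 250 bases before its start (chr7:24884342-24884591, plus strand) are shown because they hold a match to the pattern GAAANNGAAA, an interferon-response-like element, here in capitals.
Rps19: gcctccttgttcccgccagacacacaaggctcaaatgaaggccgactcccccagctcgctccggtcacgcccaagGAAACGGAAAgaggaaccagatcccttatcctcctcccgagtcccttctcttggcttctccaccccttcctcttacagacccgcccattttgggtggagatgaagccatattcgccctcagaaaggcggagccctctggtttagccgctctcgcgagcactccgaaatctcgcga

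The pyrimidine start is shown in 4 genes of different subunits, with 10 bases before the listed start and the run of pyrimidines from the start in capitals. The windows are Rpl28 at chr7:4792955-4792979 and Rpl38 at chr11:114668570-114668594 (plus strand), and Rps6 at chr4:86857353-86857377 and Rps10 at chr17:27635230-27635254 (minus strand).
Rpl28: tctcgtgtctCTCTTTCCgtctccg
Rpl38: aagcctcgttCTTTCCCCgttctct
Rps6: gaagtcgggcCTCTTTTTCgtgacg
Rps10: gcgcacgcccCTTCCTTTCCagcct

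A C at the listed start followed by at least 4 pyrimidines was found in 14 of 63 genes (22.2%), against 2.17% of all promoters. The listed start is a single RefSeq position, so a start lying a few bases away is not counted.

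In WT macrophages p65 peaks lay at most ribosomal protein genes after LPS and at fewer in control cells. In control cells 32 of 83 genes were called (38.6%, interval 28.1 to 49.9%), against 13.4% of all protein-coding genes. At 30 min 60 were called (72.3%, 61.4 to 81.6%), against 36.8%, and at 8 h 58 (69.9%, 58.8 to 79.5%), against 31.8%. The KO lists called 29 in control cells (34.9%, 24.8 to 46.2%) against 16.2% of all genes, 68 at 30 min (81.9%, 71.9 to 89.5%) against 41.9%, and 48 at 8 h (57.8%, 46.5 to 68.6%) against 25.9%. Other genes of the translation machinery were called at like rates. At 30 min in WT cells the share was 62.8% of 78 mitochondrial ribosomal protein genes, 69% of 71 initiation and elongation factor genes and 80.8% of 26 ribosome biogenesis genes. In KO cells at 30 min the same groups stood at 82.1%, 83.1% and 92.3%. The intervals of the mitochondrial ribosomal proteins and of the factors overlap those of the cytosolic ribosomal protein genes in the plot of shares by list. Among peaks holding at least 20 scaled tags, the WT lists called 16, 54 and 36 genes at control, 30 min and 8 h, and the KO lists 18, 59 and 47. All genes stood at 7.20%, 27.4% and 18.9% in WT cells and 10.4%, 29.8% and 21.3% in KO cells under that limit. It was applied to peaks already called at each library's own depth.

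**Figure D1:**
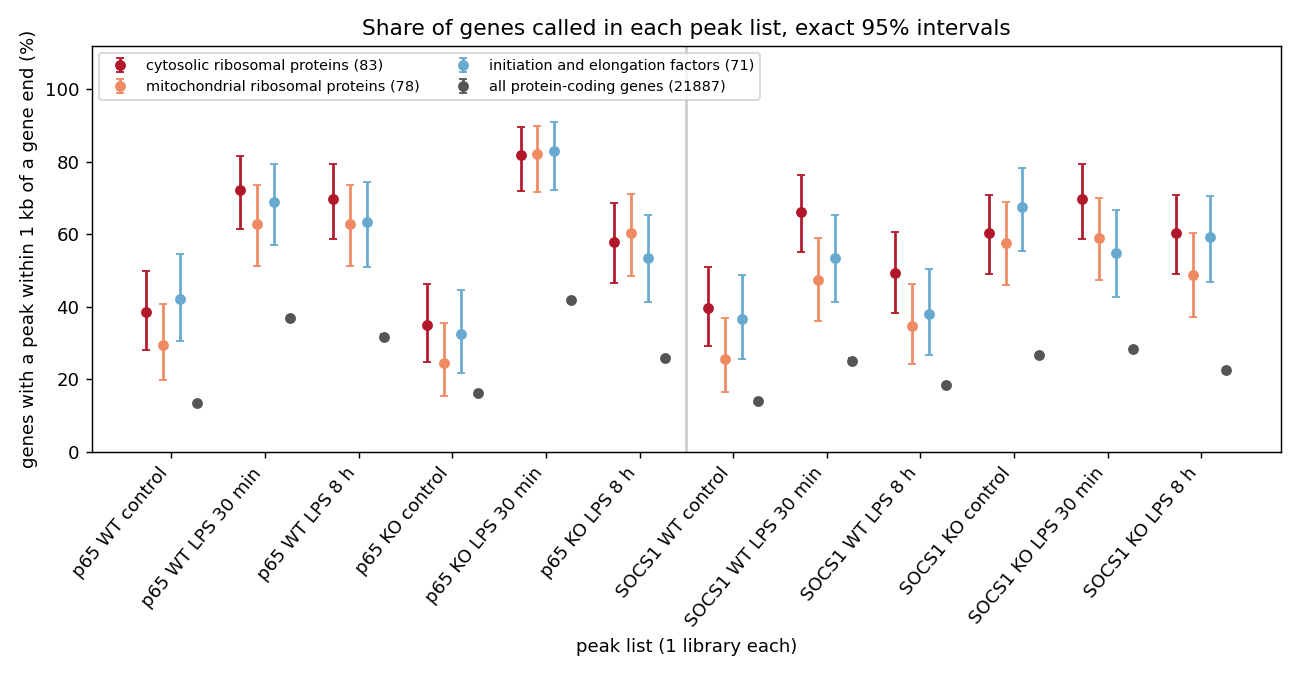
Share of genes with a peak centre within 1 kb of a gene end (y axis, %) in each of the 12 peak lists (x axis), for cytosolic ribosomal protein genes, 2 comparison groups and all protein-coding genes, with exact 95% intervals. The ribosomal protein genes sit above all genes in every list, from 34.9% against 16.2% (p65, KO control) to 81.9% against 41.9% (p65, KO 30 min), and their intervals overlap those of the mitochondrial ribosomal proteins and the translation factors.

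The shares of the 2 subunits did not differ beyond their counting intervals. At 30 min in WT cells 37 of 49 large-subunit genes (75.5%) and 23 of 34 small-subunit genes (67.6%) had a p65 peak, and both had a median score of 39. In control cells 16 of each were called (32.7% and 47.1%). In KO cells the counts for control, 30 min and 8 h were 17, 39 and 29 of the large subunit and 12, 29 and 19 of the small subunit. All these pairs of shares have overlapping intervals.

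The peaks were of middling to fairly high rank. The median p65 score of called ribosomal protein genes was 12.75, 39 and 21 in WT cells (control, 30 min, 8 h), against 13.5, 32 and 21.5 for all called genes. At 30 min in WT cells the median peak stood at percentile 72.6 of its list, and 6 of 60 lay above percentile 90. For comparison, 15 of 20 NF-κB response genes were called in that list, with a median score of 87.5 at percentile 96.8. In KO cells the medians were 12, 43.75 and 31.5, against 12.5, 39.5 and 32 for all called genes.

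Small-subunit genes led the p65 lists after LPS. Rps19, which is needed for small-subunit maturation and is mutated in Diamond-Blackfan anaemia, had no peak within 1 kb in WT control cells, 92 at 30 min (rank 941 of 36030) and 57.5 at 8 h. In KO cells it scored 25, 117.0 and 72.5 (control, 30 min, 8 h). Its peak centre lay 330 to 369 bp before the start site in all 5 lists that called it. Scaled to 10000000 tags, the Rps19 peak held 164.8 and 75.5 tags in WT cells and 61.4, 178.2 and 99.6 in KO cells, so that in both genotypes the 30 min library was the highest.

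Rps25, a small-subunit protein used in internal initiation, scored 82.5 and 45 after LPS in WT cells and had no WT control peak. The KO scores were 23, 109.0 and 46.5. The end of Trappc4 lies within 1 kb of the same peaks, so they cannot be assigned to Rps25 alone. Rps27a, which is made as a fusion with ubiquitin, had 66 and 43.5 in WT cells without a control peak, and 14.5, 88 and 73 in KO cells. Its peaks also lie within 1 kb of an end of Clhc1. All 3 genes were called in every p65 list other than WT control. Rps9 was called with 15.5, 40 and 59 in WT cells, where it led the 8 h list of the group, and with 19.5 and 60 at KO control and KO 30 min. These scores are not all from 1 site. The WT 8 h peak of 59 lay 2919 bp after the start site. The KO 30 min peak lay elsewhere, at chr7:3704044-3704266, where the WT 8 h list had 36.5.

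Among large-subunit genes, Rpl10, which joins late in 60S maturation, had the highest p65 score at 30 min in WT cells and shared the highest with Rplp2 in KO cells. It scored 10, 78.5 and 51 in WT cells, and 96.5 and 54.5 at 30 min and 8 h in KO cells without a KO control peak. The WT control peak lay elsewhere, 1799 bp after the start and within 1 kb of an end of Dnase1l1, while the 4 peaks after LPS lay 312 to 622 bp before it. Rpl24 had 75.5, 54.5 and 92 (WT 30 min, WT 8 h, KO 30 min) and no peak within 1 kb in the other 3 p65 lists. Rpl13a had a p65 score of 15.5 in WT control cells and 71.5 in KO cells at 8 h, and these peaks cannot be assigned to it alone.

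The proteins of the ribosomal stalk, which recruits elongation factors, were less alike. Rplp0 scored 9.5, 26 and 15 in WT cells, and 34.5 and 21.5 after LPS in KO cells. Rplp1 had 9.0 and 32 at WT control and 30 min, none at WT 8 h, and 40.5 and 29 in KO cells after LPS. Rplp2 had no peak within 1 kb at WT control or 30 min, 50 at 8 h, and 96.5 and 50 in KO cells after LPS. None of the 3 was called in KO control cells.

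**Figure D2:**
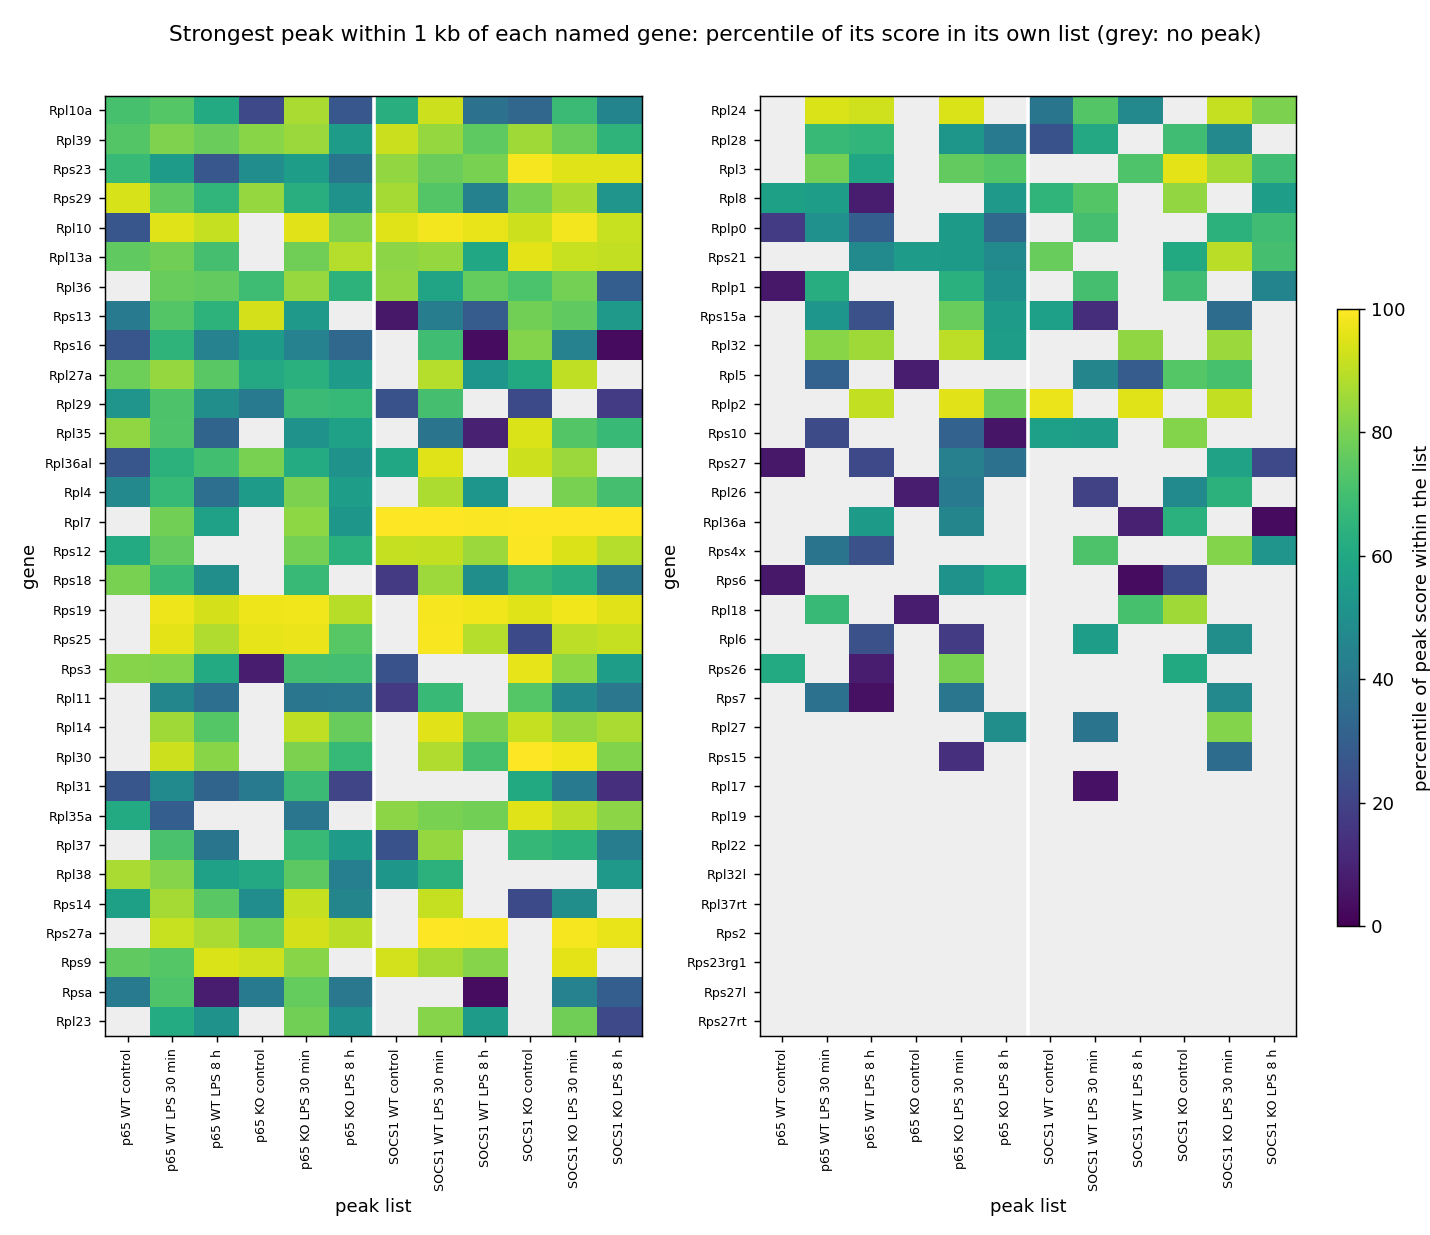
Percentile of the strongest peak within 1 kb of each ribosomal protein gene named in the text (rows, in 2 columns ordered by the number of lists that called the gene) within its own peak list (columns; p65 left and SOCS1 right of the white line), with grey where no peak was called. Rpl10a, Rpl39, Rps23 and Rps29 are filled in all 12 lists, Rpl7 stands near the top of all 6 SOCS1 lists, and the last 8 rows are empty.

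A set of 14 genes (16.9%) had a p65 peak in all 6 lists, as did 3.3% of all genes. They were Rpl10a, Rpl27a, Rpl29, Rpl31, Rpl36al, Rpl38, Rpl39, Rpl4, Rps14, Rps16, Rps23, Rps29, Rps3 and Rpsa. Rps29, a zinc-binding protein of the small subunit, had the highest WT control score of the group, 23, followed by Rpl38 with 19 and Rpl35 with 17.5. Its LPS scores were 41.5 and 26 in WT cells, and the KO scores were 16, 40 and 29.5. Rps3, the p65-binding member, scored 17, 47.5 and 24 in WT cells and 9.0, 46 and 42.5 in KO cells. Rps14, a small-subunit protein whose loss is linked to a myelodysplastic syndrome, scored 12.5, 55 and 31 in WT cells and 11, 78.5 and 26.5 in KO cells. Rpsa, also known as the laminin receptor, scored 11, 39 and 11, and 10.5, 52 and 24. In KO control cells the highest members were Rps19 with 25, Rps25 with 23 and Rps13 with 20.

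Most genes of the group that had no control peak were called after LPS, a larger share than among all genes. In WT cells 31 of 51 uncalled genes had a peak at 30 min (60.8%), against 29.7% of all genes without a control peak, and 31 of 51 at 8 h, against 24.5%. Rps26, Rps27 and Rps6 had a WT control peak and none at 30 min. In KO cells 42 of 54 gained a peak at 30 min (77.8%), against 32.8%, and 28 of 54 at 8 h (51.9%), against 19%. Rpl18 and Rpl5 were among the genes with a KO control peak and none at 30 min within 1 kb of a gene end. Rpl18 did have a KO 30 min peak, scoring 60.5, at 297 bp from its listed start site. The comparisons of 30 min and of 8 h with control share the control library.

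Called in all 4 LPS lists and in neither control list were 11 genes (13.3%), against 6.0% of all genes. Among them were Rpl11, Rpl14, Rpl23, Rpl28, Rpl3, Rpl30, Rpl32, Rpl37, Rpl7 and Rps15a. Rpl30 and Rpl14 had the highest scores of this set at 30 min in WT cells, 68 and 53.5. The MDM2-binding Rpl11 scored 24 and 16.5 in WT cells after LPS, and 26.5 and 24 in KO cells. Rpl23, which carries the kB match shown above, scored 31.5, 20.5, 55 and 29 in the same order. No member had p65 peaks in both control lists and in no LPS list.

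Between 30 min and 8 h the p65 count went from 60 to 58 in WT cells and from 68 to 48 in KO cells. Among peaks with at least 20 scaled tags the WT count was the one that fell further, from 54 to 36, against 59 to 47 in KO cells. In WT cells 11 of 60 genes called at 30 min were not called at 8 h, against 28.7% of all genes, and 9 of 23 were called at 8 h and not at 30 min, against 8.82% of all genes. In KO cells 22 of 68 were not called at 8 h, against 44.2% of all genes, and Rpl27 and Rpl8 alone, of 15, were called at 8 h and not at 30 min (4.44% of all genes). Rpl26 (9.0 and 27.5 at control and 30 min) and Rps26 (56 at 30 min) were among those without a KO 8 h peak. The 8 h KO peaks were called with a width of 493 bp, the widest of the 12 lists, against 222 bp at 30 min.

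WT and KO cells were closest at 30 min. The 2 lists shared 55 genes, with 5 called in WT cells alone (among them Rpl18, Rpl5, Rpl8 and Rps4x) and 13 in KO cells alone. Rpl18 is counted so by its gene ends only, since a KO 30 min peak of 60.5 lay 297 bp from its listed start site. Of the genes called in WT cells, 91.7% were also called in KO cells at 30 min, 74.1% at 8 h and 50% in control cells, against 88.9%, 63.8% and 43.9% of all genes. Rps4x, an X-linked small-subunit gene, was the only gene of the group with WT peaks at both LPS times (21 and 14) and none in KO cells. Rps6, the substrate of the S6 kinases, was the only member with the reverse pattern, 32.5 and 34 in KO cells, and its sole WT p65 peak was in control cells (9.0). Such patterns were found at 0.754% and 1.13% of all genes, so single genes of either kind are near the background. Of the 25 genes that the WT list lacked at 8 h, the KO list called 5, against 8.3% of all genes.

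Some further genes, among them the p53-linked Rpl5 and Rpl26 and the X-linked Rpl36a, had low or patchy p65 calls. Rpl5 had 18.5 at WT 30 min and 9.0 at KO control alone. Rpl26 had no p65 peak within 1 kb in WT cells. Rpl36a had 21.5 at WT 8 h and 29.5 at KO 30 min. Rps15 was called for p65 at KO 30 min alone, with 16, and Rpl17 in no p65 list.

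SOCS1 peaks were called at a larger share of ribosomal protein genes than of all genes in every list, with the highest count at 30 min in both genotypes. In WT cells 33 genes were called in control cells (39.8%, interval 29.2 to 51.1%) against 14.1% of all genes, 55 at 30 min (66.3%, 55.1 to 76.3%) against 25.1%, and 41 at 8 h (49.4%, 38.2 to 60.6%) against 18.4%. The KO lists called 50 in control cells (60.2%, 48.9 to 70.8%) against 26.6%, 58 at 30 min (69.9%, 58.8 to 79.5%) against 28.3%, and 50 at 8 h (60.2%) against 22.6%. In KO control cells the IgG count was at its floor under 37 of the 50 peaks, and the part of the IgG library in that count was not tested. Whether the KO cells lack SOCS1, in which case this antibody could not report it there, is not settled by the sources used here. Mitochondrial ribosomal protein genes were called at 25.6%, 47.4% and 34.6% in WT cells, and initiation and elongation factors at 36.6%, 53.5% and 38%.

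Within their own lists the SOCS1 peaks of the group had median percentiles of 62.7, 73.4 and 70.8 in WT cells and 80.8, 79.6 and 61.7 in KO cells. Their median scores were 14, 19 and 20.5, and 15.25, 25.25 and 19.5. Called genes as a whole had median percentiles of 62.7, 67.6 and 57.8, and 71.5, 66.9 and 60.1. In KO control cells 16 of 50 member peaks lay above percentile 90 of their list.

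Rpl7, a protein of the large subunit, had one of the strongest SOCS1 peaks of every list. It scored 101.5 (rank 3 of 9438), 105.0 (rank 3 of 19631) and 62.5 (rank 70) in WT cells. In KO cells it scored 128.0 (rank 1 of 24270), 110.0 (rank 12) and 83.5 (rank 30). Scaled to 10000000 tags, the peak held 414.2, 491.1 and 126.7 tags in WT cells and 554.9, 408.0 and 220.0 in KO cells, over 0.5 to 10.8 IgG tags. The 8 h library was the lowest of each genotype and the untreated cells already had a high peak in both. In WT control cells it lay at chr1:16104609-16104951, outside the gene, with its centre 347 bp from the gene end at 16104433, and no other protein-coding gene has an end within 1 kb of it. The p65 antibody gave no peak at Rpl7 in either control, and 44.5, 22.5, 61 and 30.5 after LPS (WT 30 min, WT 8 h, KO 30 min, KO 8 h), at percentiles 78.7, 57.3, 83 and 53.

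Rps27a differed from Rpl7 in the untreated cells. It had no SOCS1 peak within 1 kb in either control, 98.5 (rank 8) and 63 (rank 65) in WT cells at 30 min and 8 h, and 60.5 (rank 301) and 50 (rank 533) in KO cells. The peak held 378.2 and 134.6 scaled tags in WT cells and 214.7 and 88.8 in KO cells, lower at 8 h than at 30 min, as at Rpl7. All 4 SOCS1 LPS lists called 26 genes, against 7.56% of all genes. Only Rpl23 and Rpl4 shared this presence within 1 kb in all 4 LPS lists with absence from both controls (3.61% of members against 1.02% of all genes). Rpl23 scored 23 and 16.5 in WT cells and 24.5 and 12 in KO cells, and Rpl4 27.5, 16, 25.5 and 22.5. At Rpl4 a KO control peak of 19.5 lay 1078 bp from the gene end, just outside the 1 kb limit, and overlapped both WT LPS peaks. The Rpl4 peaks of 27.5, 16 and 22.5 also lie within 1 kb of an end of Snapc5. The KO 30 min peak of 25.5 lay elsewhere, 122 bp after the start site and within 1 kb of an end of Zwilch. Another KO 30 min peak at Rpl4, scoring 22, overlapped the peaks near Snapc5.

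SOCS1 peaks were called in all 6 lists at 14 genes (16.9%), against 3.33% of all genes. Among them were Rpl10, Rpl10a, Rpl13a, Rpl35a, Rpl36, Rpl39, Rpl7, Rps12, Rps13, Rps18, Rps23 and Rps29. Rpl10 scored 29, 51 and 42.5 in WT cells and 22.5, 58 and 38 in KO cells, above percentile 90 in each. The KO control peak lay 954 bp after the start, and the other 5 lay 331 to 428 bp before it. Rpl13a, the silencer of inflammatory mRNAs, scored 19, 24.5 and 17.5, and 27.5, 37 and 37. Rps12, of the small subunit, scored 24.5, 31 and 27 in WT cells and 44, 43.5 and 34.5 in KO cells. Rps23, which sits at the decoding centre, scored 19.5, 20.5 and 24, and 36, 44.5 and 45.5 in KO cells, at percentiles 83.8, 77 and 79.8 of the WT lists and 98.5, 95.1 and 95.2 of the KO lists.

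Rps19 and Rps25 had SOCS1 peaks in the same 5 conditions as their p65 peaks. Rps19 scored 56.5 and 46.5 after LPS in WT cells and 26, 55 and 47 in KO cells. Rps25 scored 58.5 and 30, and 7.5, 34.5 and 37.5. Rplp2 had 33.5 in WT control cells, within 1 kb of an end of Pidd1 as well, 38 at WT 8 h and 36 at KO 30 min, and no SOCS1 peak within 1 kb in the other lists. Rpl30 had 52 (rank 72) in KO control cells and no peak in WT control cells.

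Rpl31, Rps21, Rps27 and Rps3 had SOCS1 peaks at both LPS times in KO cells and at neither in WT cells (4.82%, against 2.44% of all genes), and no member had the reverse, a pattern of 1.01% of all genes. Rps3 scored 10 in WT control cells, and 28.5, 27.5 and 18 in KO cells. Rps21 scored 17 in WT control cells, and 10.5, 34 and 22.5 in KO cells. Rpl31 had 10.5, 13 and 11 in KO cells, and Rps27 had 16.5 and 12 after LPS in KO cells. No member had SOCS1 peaks in both controls and in no LPS list. Among the other p53-linked genes, Rpl5 had SOCS1 scores of 12 and 12.5 after LPS in WT cells and 13 and 21 at KO control and 30 min. Rpl11 had 9.5 and 17 at WT control and 30 min, and 13, 14 and 14.5 in KO cells. Rpl26 had 9.0 at WT 30 min, and 9.0 and 18.5 at KO control and 30 min.

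LPS was followed by new SOCS1 calls in WT cells at 27 of 50 genes at 30 min (54%), against 18.5% of all genes without a control peak, and at 21 of 50 at 8 h (42%), against 12%. In KO cells 18 of 33 gained a peak at 30 min (54.5%), against 14.5%, and 13 of 33 at 8 h (39.4%), against 10.8%. In WT cells 5 of 33 control genes had no peak at 30 min, against 34.5% of all genes, and 13 of 33 had none at 8 h, against 42.1%. From 30 min to 8 h 24 of 55 were no longer called, against 51.7%, and 10 of 28 were newly called, against 8.42%. Of the WT-called genes, 81.8%, 83.6% and 82.9% were called in KO cells as well (control, 30 min, 8 h), against 67.9%, 69.4% and 66.9% of all genes.

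The p65 and SOCS1 peaks overlapped by at least 1 bp at 14, 37 and 31 genes in WT cells (16.9%, 44.6% and 37.3%; control, 30 min, 8 h), against 4.77%, 16.7% and 13.3% of all genes. In KO cells the counts were 13, 43 and 28 (15.7%, 51.8% and 33.7%), against 8.57%, 20.5% and 13.5%. At 30 min in WT cells the overlapping sites were 61.7% of the genes called for p65 and 67.3% of those called for SOCS1, against 45.5% and 66.5% for all genes. In KO control cells both shares were below those of all genes, 44.8% against 52.9% for p65 and 26% against 32.2% for SOCS1, and at KO 8 h the SOCS1 share was too, 56% against 59.9%. Both antibodies were set against the same IgG library, which was not tested as a source of overlap. The median distance between the centres of overlapping peaks ran from 31 bp (WT 30 min) to 98 bp (KO 8 h).

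**Figure D3:**
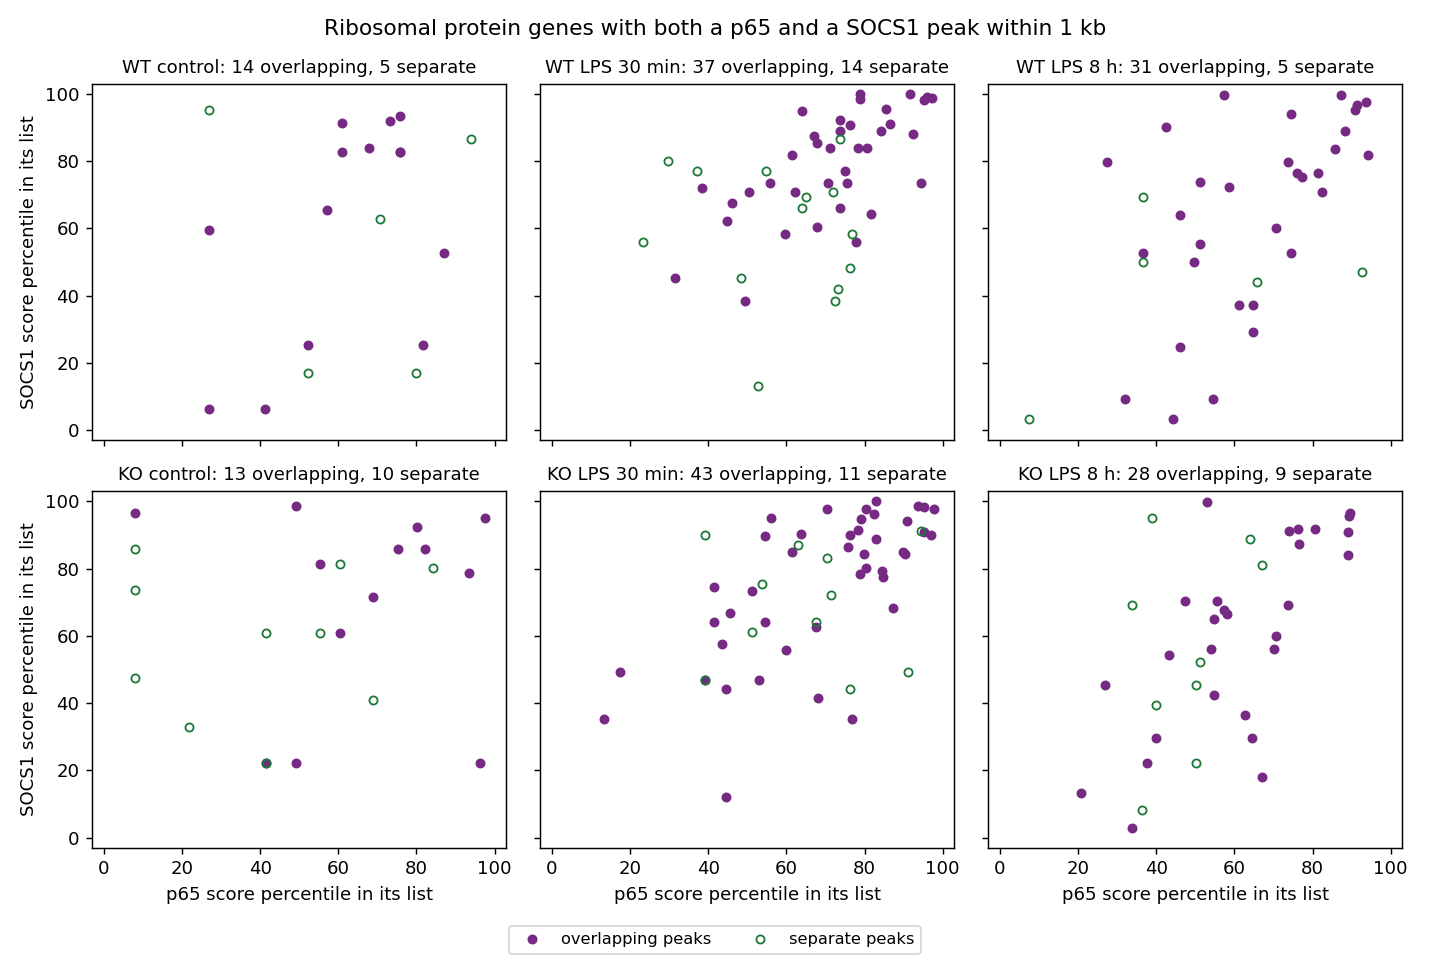
Percentile of the strongest p65 peak (x axis) and of the strongest SOCS1 peak (y axis) within their own lists for ribosomal protein genes called with both antibodies, in WT (top) and KO (bottom) cells. Filled points are genes where any p65 and SOCS1 peaks within 1 kb overlap, which need not be the strongest ones, and open points are the other genes. There are 14 overlapping genes in WT control cells and 37 at 30 min, and 13 and 43 in KO cells.

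Rpl39, a small protein at the peptide exit tunnel, was the only member with overlapping p65 and SOCS1 peaks in all 6 conditions. Its p65 scores were 15, 46.5 and 33 in WT cells and 15.5, 64 and 31.5 in KO cells, and its SOCS1 scores were 25, 24.5 and 22, and 17.5, 24 and 20.5. Its p65 peak centres lay 114 to 336 bp before the start site. Rpl13a, Rps19 and Rps25 were among the genes that overlapped in 5 conditions. With Rpl39, Rpl10a, Rps23 and Rps29 were called in all 12 lists, which makes 4 of 83 (4.82%), against 0.982% of all genes. Rpl10a, a large-subunit protein, had p65 scores of 14.5, 40 and 24 in WT cells and 9.5, 69 and 19 in KO cells. Its SOCS1 scores were 14, 33 and 13.5, and 8.0, 20 and 15.5. These scores are not all from 1 site. The WT control p65 peak lay 621 bp and the KO control SOCS1 peak 579 bp after the start of Rpl10a. Its LPS peaks with either antibody lay 79 to 204 bp before the start. Rps23 had p65 scores of 14, 28 and 14.5, and 11, 35.5 and 23.5.

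Most peak centres lay within 500 bp of the start site, though not always more often than those of all genes, and for p65 the side differed between control and LPS lists. At 30 min in WT cells 38 of the 44 called genes with a listed start (86.4%) had their peak centre within 500 bp of it, against 71.9% of all called genes. Within 250 bp it was 38.6% against 41.7% in that list and 18.2% against 28% for p65 at KO 8 h. For SOCS1 at 30 min in WT cells 70.7% lay within 500 bp, against 73.3% of all called genes. In WT control cells 16 of 26 centres lay after the start, with a median of 227 bp after it, whereas at 30 min 20 of 44 and at 8 h 19 of 42 did, with medians of −168 and −172.5 bp. In KO cells the medians were 32 bp after the start in control cells (13 of 23 after it), −196 at 30 min and −294 at 8 h (9 of 33 after it). All called genes had medians of 17.5, −122 and −160 in WT cells, and −28, −145 and −169 in KO cells. For SOCS1 the medians of the group were −51.5, 126 and −185 in WT cells and 105, 130.5 and −229 in KO cells. Peak width differed between lists, from 222 to 493 bp, and its part in these positions was not tested.

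**Figure D4:**
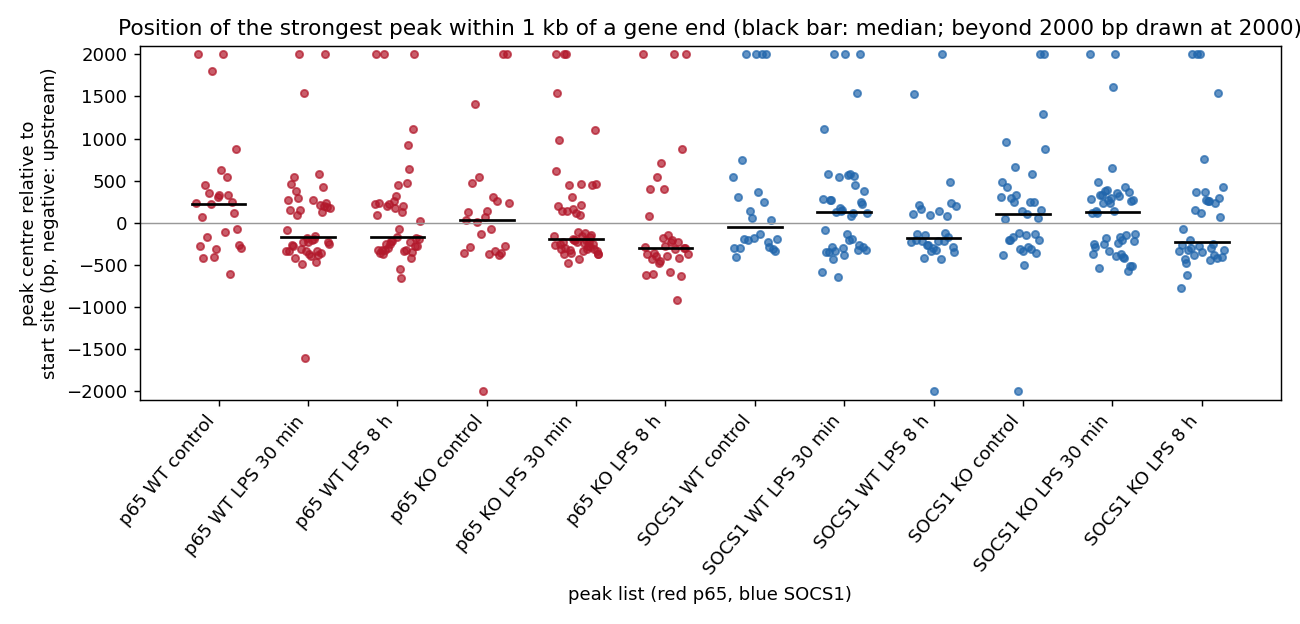
Distance of the strongest peak centre from the RefSeq start site (y axis, bp, negative is upstream) for each called ribosomal protein gene with a listed start (points) in the 12 lists (x axis) with the median as a black bar, and far points drawn at the edge. For p65 the median lies 227 bp downstream in WT control cells and 168 bp upstream at 30 min.

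Few peak centres fell inside the 300-base promoter windows, which bears on how the motif matches can be read. At 30 min in WT cells 8 of 44 p65 centres did, 1 of them in a promoter with a kB match and 6 in one with an ETS core. In KO cells at 30 min it was 15 of 51, with 1 and 12. Of the 44 genes called for p65 at 30 min in WT cells with a promoter sequence, 3 had the kB match and 30 the ETS core, while 34.9% of all called genes had the ETS core and 10.7% the kB match. In KO cells 51 of the 63 genes were called for p65 at 30 min. They held all 4 genes with a kB match and 39 of the 42 with an ETS core. Of all called genes in that list, 10.5% had the kB match and 34.8% the ETS core.

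Other motifs were searched on both strands in the same windows, and matches of different motifs may share bases, as the GC box and the ETS core can. The GC box GGGCGG was in 57.1% of the promoters (46.3% of all), the YY1 core AAGATGG in 14.3% (6.35%), TATAA in 27% (22.8%) and CCAAT in 34.9% (39.2%). The cyclic-AMP response core TGACGT was in 19% (8.71%), the PU.1 pattern GAGGAAG in 15.9% (13.5%) and the AP-1 site TGANTCA in 1.59% (7.03%). The interferon-response-like pattern shown for Rps19 was in 7 of 63 (11.1%, against 3.40%), at Rpl27a, Rpl38, Rpl4, Rpl5, Rps19, Rps23 and Rps7. All 7 were called for p65 at 30 min in WT cells, where 44 of the 63 genes were called. For p65 at KO 30 min 6 of 7 were called (51 of the 63), for SOCS1 at WT 30 min 6 (41) and for p65 in WT control cells 4 (26). Among all called genes of these 4 lists the pattern was in 3.32%, 3.32%, 3.42% and 3.63%, close to its share of all promoters. Median GC content was 58% in the group and 56.3% in all promoters.

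No peak within 1 kb of a gene end was found in any list for 8 genes (9.64%), against 47.7% of all genes: Rpl19, Rpl22, Rps2, Rps27l, Rpl32l, Rpl37rt, Rps23rg1 and Rps27rt. For Rpl19, Rpl22, Rps2 and Rps27l a RefSeq start site lies inside the annotated gene, more than 1 kb from its outer end, and peaks lay there. At Rpl22 the p65 scores at this site were 11.5, 28 and 13 in WT cells, and 45 and 25.5 in KO cells after LPS. At Rps2 they were 35 and 15 in WT cells after LPS and 54.5 in KO cells at 30 min. Rps27l, a p53-induced relative of Rps27, had 20, 41 and 28 in WT cells and 47.5 in KO cells at 30 min. Rpl19 had p65 scores of 48 and 38.5 in KO cells after LPS, and a SOCS1 score of 47.5 in WT cells at 30 min.

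The other four uncalled genes are retrogenes or paralogs by name, and Rpl32l and Rps23rg1 had no peak within 10 kb in any list either. Pseudogenes of ribosomal proteins, which copy the same mRNAs, were called at 0 to 3.09% of 324 across the 12 lists. Other pseudogenes were called at 0.739 to 3.50% of 10285. Counted by start site alone, the genes called for p65 were 25, 45 and 44 of 63 in WT cells (14.5%, 38.4% and 33.3% of all genes) and 19, 55 and 33 in KO cells (17.2%, 43.7% and 27%).

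Within 10 kb of a gene end, p65 peaks were found at 46, 74 and 70 genes in WT cells (28.4%, 58.9% and 52.6% of all genes) and at 43, 80 and 67 in KO cells (31.5%, 62.8% and 51.3%). SOCS1 peaks were found at 41, 70 and 56 genes in WT cells (28.2%, 43.9% and 34.9%) and at 70, 73 and 65 in KO cells (49.8%, 47.3% and 40.8%). Several strong sites lay in this outer zone in KO cells at 8 h. Rpl6 had a p65 peak of 124.5, 7276 bp from its gene end, Rps9 one of 100.0 at 3404 bp, and Rpl24 one of 76.5 at 1075 bp. The Rpl24 peak therefore lay just outside the 1 kb limit, which is what keeps Rpl24 out of the 1 kb count of that list.

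The ribosomal protein genes are short, with a median length of 3175 bp against 17169 bp for all genes, so their 2 ends lie close together. A neighbouring protein-coding gene had an end within 1 kb of 20 to 31% of the group's peaks in the 12 lists.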

How the data were processed

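CUT&RUN peak lists of 12 libraries were analysed, 1 each for p65 and SOCS1 in WT and KO macrophages at 3 treatments. The series has 20 samples. Its 6 IgG libraries served the authors as background for peak calling, and 2 internal controls were not used. Per the submitters' processing notes, reads were handled with cutadapt, Bowtie2 2.4.1 and HOMER 4.11 on mm10. Per the file headers, findPeaks called each list in its factor mode against IgG of the same genotype and treatment, at an FDR of 0.001 and 4-fold over IgG and over the local background. Each deposited list gives the signal, a tag count that the authors scaled to 10000000 tags, and the authors' score, which is not scaled to depth. The deposited ratio columns are the authors' fold over IgG and over the local background, and the authors' Poisson p-value was not used. IgG tags have a floor of 0.5.

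Peaks were linked to genes of the RefSeq table (GRCm38.p6, which has the coordinates of mm10) by the distance from the peak centre to either gene end, 1 kb and then 10 kb. Start sites came from the promoter table for 63 of 83 genes. Python 3.11.15 with pandas 2.3.3 and scipy 1.17.1 was used, and the linking was tested on simulated data. With 1 library per group, counts have exact 95% intervals and no test was made. Named genes are the 3 highest in each list, those called in all 6 lists of an antibody, in all 12 or in none within 10 kb, those called at both LPS times in 1 genotype alone, and a fixed list (Rps3, Rpl13a, Rpl5, Rpl11, Rpl23, Rpl26, Rps6, Rps19, Rps14, Rps27a, Rps27l, Rplp0, Rpsa, Rpl10, Rps4x and Rpl36a). Further genes were named after their values were seen. The members and lists were chosen with earlier results of these data known. Alternatives changed the distance, the gene end, the peak limits and the overlap. Values of some genes are not reported here by name, and the counts include them.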

Additional observations from a re-analysis of the deposited data

Results flagged for a closer look

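Within 10 kb, SOCS1 calls at ribosomal protein genes moved in opposite directions between control and 8 h in the 2 genotypes. In WT cells the count went from 41 to 56 genes, a change of 15, and in KO cells from 70 to 65, a change of -5, so the 2 changes differ by 20 genes. This difference was not tested, since each count comes from 1 library. The IgG count was at its floor under 88.0% of all SOCS1 peaks in KO control cells, against 35.3% in KO cells at 8 h and 34.3% in WT control cells, and its part in the difference was not tested. All protein-coding genes went the same ways, from 28.2% to 34.9% in WT cells and from 49.8% to 40.8% in KO cells.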

How the results depend on the processing

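Windows of 500 bp, 2 kb and 5 kb, start sites alone, centres within 500 bp and an overlap of at least 50% kept each count within 1.5 times its main value. Peaks at least 8-fold above the local background gave larger drops. Within 1 kb p65 then counted 14 and 36 genes in WT control and 30 min cells, and 14, 39 and 19 in KO cells (control, 30 min, 8 h), and SOCS1 16 in WT control and 28 in KO 8 h cells. Within 10 kb p65 counted 23 in WT control, 22 in KO control and 31 in KO 8 h cells, and SOCS1 24 in WT control and 39 in KO 8 h cells. Overlapping p65 and SOCS1 sites fell to 4, 20 and 18 genes in WT cells and 7, 21 and 9 in KO cells. No share of all genes under the 8-fold limit is given for these overlaps, so they cannot be set against the background. With a lowest score of 12 in every list, p65 counted 20 in WT control and 15 in KO control cells, and SOCS1 21 in WT control and 32 in KO control cells. Within 10 kb that limit left 26 and 21 for p65 in the control lists (WT, KO). With at least 20 scaled tags, p65 counted 16 and 36 in WT control and 8 h cells and 18 in KO control cells, and SOCS1 26 in WT 8 h cells. Within 1 kb the group's share stayed above that of all genes in each list under these 3 limits. The gap was smallest in KO control cells for p65 at 8-fold (16.9% against 10.0%). The 10 kb counts under these limits have no share of all genes beside them. No paired analysis was possible because each group has 1 library and the labels give no replicate numbers. No replicate could be left out for the same reason. No site with a score below the lowest of its list, 7 to 12, was called.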

Other observations

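Some ribosomal protein genes carry small nucleolar RNA genes in their introns, which guide rRNA modification. In the RefSeq annotation this holds for 30 of the 83. In SOCS1 WT cells at 8 h, 21 of these 30 hosts (70.0%) and 20 of 53 other members (37.7%) had a peak within 1 kb, against 28.0% of all 372 protein-coding host genes. This was the widest gap of the 12 lists. In SOCS1 KO cells at 8 h the shares were 66.7% and 56.6%, and for p65 in KO control cells they were 33.3% and 35.8%. For p65 at 30 min in WT cells the shares were 80.0% of hosts, 67.9% of the other members and 52.7% of all host genes. In WT control cells they were 40% and 37.7% for p65, and 40% and 39.6% for SOCS1. These shares come from single libraries and the split was examined after the peaks were linked, so they are given as values only.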
